A study of Mus musculus with 4 samples.

Results

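IN2 is a population of inhibitory neurons of the mouse superior colliculus, named by the authors' deposited annotation of single nuclei. Its members are the 504 nuclei with that subtype label, of 9724 nuclei in all and of 3459 in the deposited class Inhibitory Neuron. That class holds 12 subtypes, IN1 to IN12. The other 11 inhibitory subtypes held 2955 nuclei and are the population that IN2 is set against within each library.

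The superior colliculus is a layered midbrain structure that receives retinal, auditory and somatosensory input and directs orienting and escape movements. Its inhibitory neurons make GABA with the glutamate decarboxylases Gad1 and Gad2 and load it into vesicles with the transporter Slc32a1. In the developing midbrain the GABAergic fate is set by transcription factors such as Gata2, Gata3 and Tal1, and the later diversity of these neurons is read from further transcription factors, adhesion molecules and receptors.

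Nuclei were isolated from the microdissected colliculus of C57BL/6J mice, with no further genotype or treatment in the labels, before birth at embryonic day 19 (E19) or after birth at P4, P8 and P21, named by postnatal day. A stage is 1 library of tissue pooled from several animals. How many animals, and of which sex, is not given in the sources used here. RNA was captured from the 3′ end and counted as unique molecular identifiers (UMIs), introns included. With 1 library per stage there were no replicates, so no test was made. Every stage difference below is a difference between libraries, and all intervals are 95% intervals that cover counting error only.

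IN2 contributed 165 nuclei and 1083183 UMIs at E19, 110 nuclei and 1123266 UMIs at P4, 142 nuclei and 2011733 UMIs at P8, and 87 nuclei and 1761306 UMIs at P21. No single nucleus held more than 3.11% of the IN2 UMIs of its library. Levels are UMIs per 1000000 UMIs summed over the nuclei of a population in a library (CPM). Across all classes 9 cell barcodes occurred in more than 1 library, and 1 IN2 nucleus carried such a barcode.

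The inhibitory label of IN2 went with its transmitter genes. The subtypes were drawn from these same values, so this describes IN2 and does not check the label. Gad2 stood at 643, 519, 463 and 325 CPM in IN2 at E19, P4, P8 and P21, against 538, 484, 440.3 and 374 CPM in the other inhibitory subtypes. Gad1 stood at 344, 327, 307 and 178 CPM, against 269, 248, 276 and 246 CPM. Slc32a1 stood at 103, 96.1, 47.7 and 64.7 CPM, close to the 112, 90.04, 56.3 and 80.7 CPM of the other subtypes. The vesicular glutamate transporter Slc17a6 reached 37.9, 25.8, 14.9 and 4.54 CPM in IN2, below the other inhibitory subtypes in each library (48.2, 41.6, 20.8 and 9.01 CPM). The glycine transporter Slc6a5, a mark of glycinergic neurons, was at or near 0 (0.92, 0, 0 and 0.57 CPM). IN2 nuclei were thus GABAergic by transcript, without a glycinergic mark.

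Depth differed between libraries, so shares of nuclei with a UMI are given after each nucleus was thinned to 3800 UMIs, with shallower nuclei left out. This kept 150, 108, 141 and 85 IN2 nuclei. Of these, 95.3%, 98.1%, 89.4% and 83.5% held a Gad1 or Gad2 UMI at E19, P4, P8 and P21. Without thinning the shares were 98.2%, 99.1%, 100% and 100%. In excitatory neurons, which should lack both genes, the thinned shares were 15.2%, 11.9%, 9.76% and 7.68%. Slc17a6 was found in 12%, 11.1%, 4.96% and 1.18% of thinned IN2 nuclei, and in 65.0%, 56.5%, 47.9% and 50.2% of thinned excitatory nuclei. The 3 excitatory markers together reached 40.6, 33.8, 20.9 and 6.81 CPM in IN2, against 289, 249, 184 and 179 CPM in excitatory neurons. Most IN2 nuclei thus held a GABA-synthesis transcript at each stage, and few held the glutamatergic one.

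The deposited table carried further labels for the same nuclei. Cluster number 5 held 422 of the 504 IN2 nuclei (83.7%), and 94.2% of the neurons with that number were IN2. The fit of label and cluster was looser at E19, where cluster 5 held 116 of 165 IN2 nuclei (70.3%), than at P4 (87.3%), P8 (93.0%) and P21 (89.7%). In one set of reference labels 481 IN2 nuclei (95.4%) carried label 1, which 323 other inhibitory nuclei (10.9%) also carried. The second set of reference labels did not follow the subtype. It named 240 IN2 nuclei (47.6%) ISC5, 148 (29.4%) ESC2 and 116 (23.0%) ESC1. Of the other inhibitory nuclei 58.5%, 23.4% and 17.7% carried these labels. The share of ISC5 was alike at E19 (54.5% in IN2, 55.9% in the others) and lower in IN2 at P21 (36.8%, against 56.8%).

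IN2 made up 18.5% of the inhibitory nuclei of the E19 library (15.98 to 21.2), 14.9% in the P4 library (12.4 to 17.7), 13.1% in the P8 library (11.1 to 15.2) and 11.8% in the P21 library (9.52 to 14.3). As a share of all neurons it was 7.40%, 5.66%, 7.26% and 6.12%. These are shares by label. Expression within IN2, its leading genes included, differed between libraries, so no order of stages is read from them. The median IN2 nucleus held 6064, 10161, 12919 and 18981 UMIs, against 6075.5, 7381, 8910.5 and 13410 UMIs in the other inhibitory subtypes. By the median, IN2 nuclei were thus deeper than the pooled nuclei of the other inhibitory subtypes from P4 on. This is why shares are compared only after thinning. Greater depth was not special to IN2. IN1 nuclei were deeper than IN2 nuclei in each library, with medians of 8604.5, 11318, 15284 and 20393 UMIs. No other single inhibitory subtype had a higher median than IN2 from P4 on.

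**Figure D1:**
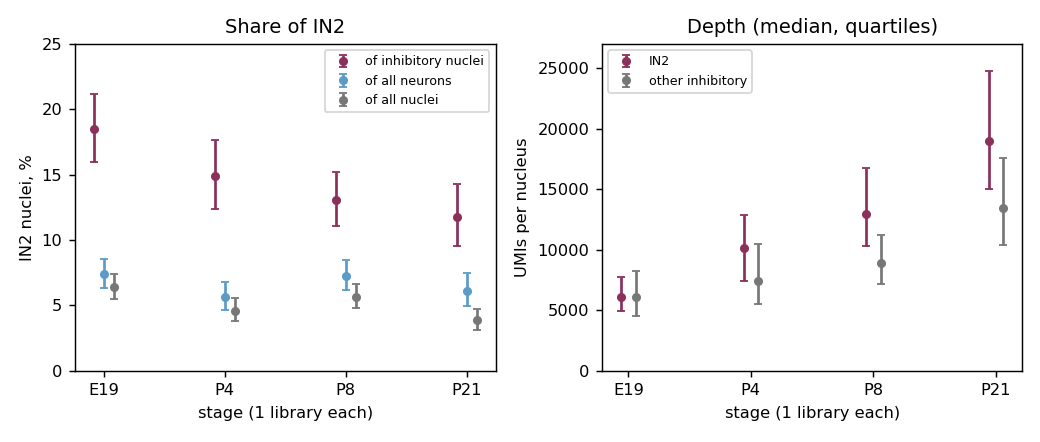
Left, IN2 nuclei as a percent of inhibitory nuclei, of all neurons and of all nuclei at each stage (1 library each; bars are exact 95% intervals for counting error). Right, median UMIs per nucleus with quartiles in IN2 and in the other inhibitory subtypes; IN2 is at 18981 at P21 against 13410.

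Set against the other inhibitory subtypes, IN2 held more of the receptor genes Rxfp2 and Ptprk, the adhesion genes Sdk2, Cdh22 and Cntn3 and the transcription factors Npas3 and Foxp2. It held less of Adarb2 and of the transcription factors Otx2, Nfib and Meis2. The subtypes were drawn from these same expression values, so the differences describe IN2 and carry no test. A gene was called higher or lower when its log2 ratio, with 5 CPM added to both values, was at least 1 or at most -1 in all 4 libraries. Of 4008 genes with at least 50 CPM in either population, 19 were higher (0.474%) and 45 were lower (1.12%). At the edge of the rule, the lowest log2 ratios over the libraries were 1.05 for Egflam and 1.08 for Pde1c among the genes called higher, and 0.95 for C130073E24Rik and 0.91 for Vwc2l just outside. On the low side, the highest log2 ratios were -1.01 for Hs3st3b1 inside and -0.99 for Dpf3 outside.

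Rxfp2, the G protein-coupled receptor for insulin-like peptide 3, set IN2 apart by the widest margin. The gene (ENSMUSG00000053368) lies on chromosome 5, positions 150018675 to 150082184 of GRCm38 (mm10), on the forward strand. Its level in IN2 was 77.5 CPM (61.9 to 96.0) at E19, 196 CPM (171 to 224) at P4, 225 CPM (205 to 247) at P8 and 62.5 CPM (51.3 to 75.3) at P21. The other inhibitory subtypes together stood at 0.82, 2.28, 6.62 and 2.62 CPM. The folds of IN2 over the others were 94.6 (35.6 to 355), 85.9 (48.2 to 169), 34.0 (25.96 to 45.3) and 23.8 (15.3 to 38.4). IN2 ranked first among all neuron subtypes with at least 20 nuclei in every library. The next was the excitatory subtype EN3, at 48.4, 115, 54.0 and 39.6 CPM. No other inhibitory subtype was above 24.99 CPM in any library. Within its class the receptor thus marked IN2, while EN3 shared it.

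Rxfp2 was seen in a minority of IN2 nuclei. After thinning, 11.3%, 25%, 23.4% and 16.5% of IN2 nuclei held a UMI, against 0.465%, 0.85%, 1.72% and 0.772% of the other inhibitory nuclei. At full depth the IN2 shares were 14.5%, 29.1%, 36.6% and 27.6%. The most strongly labelled nucleus held between 9.27% and 18.2% of the IN2 UMIs of a library, so the level did not come from 1 nucleus. Levels and shares were highest at P4 and P8 and lower at E19 and P21.

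The windows around the annotated starts of Rxfp2 and Adarb2 are shown because these genes lead the 2 sides of the comparison. They run from 250 bases before to 50 bases after the start, from the RefSeq table for GRCm38.p6, both on the forward strand, at chr5:150018425-150018724 and chr13:8202616-8202915. Capitals mark a forkhead word, TAAACA, read on the reverse strand in Rxfp2, and the homeodomain word TAATTA in Adarb2.
Rxfp2: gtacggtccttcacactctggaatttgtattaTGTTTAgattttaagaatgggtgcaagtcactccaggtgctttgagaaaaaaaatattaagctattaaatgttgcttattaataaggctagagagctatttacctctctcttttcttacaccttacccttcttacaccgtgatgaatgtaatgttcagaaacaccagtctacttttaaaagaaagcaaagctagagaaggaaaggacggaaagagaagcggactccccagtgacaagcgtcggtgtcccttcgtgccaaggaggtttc
Adarb2: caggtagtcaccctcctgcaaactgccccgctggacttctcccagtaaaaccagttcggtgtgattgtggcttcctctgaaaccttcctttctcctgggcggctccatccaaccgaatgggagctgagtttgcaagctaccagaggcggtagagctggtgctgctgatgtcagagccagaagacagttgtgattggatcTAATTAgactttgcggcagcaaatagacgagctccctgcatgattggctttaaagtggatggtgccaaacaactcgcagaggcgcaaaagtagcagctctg

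The Rxfp2 window is AT-rich, with 40.3% G and C, and its forkhead word begins 218 bases before the start. The Adarb2 window has 52.7% G and C, and its homeodomain word begins 51 bases before the start. Each word was searched on both strands. The words TAATCC and TAATTA share their first letters, and a match of one was not counted as a match of the other. TAAACA is in 13.4% of all 32851 windows of the table and TAATTA in 5.29%. The bicoid-type word TAATCC, bound by OTX proteins, is in 7.06% of them and the LEF word CTTTGAT in 3.73%. Among the 25 windows of the 20 leading genes matched in the table, TAAACA was in 2 (Rxfp2 and Cntn3), TAATTA in 6, TAATCC in 1 and CTTTGAT in 1 (Npas3). The 6 windows with TAATTA belong to Adarb2, Zfp536, Otx2 and Lmo1, with 2 each for Otx2 and Lmo1. The 2 Lmo1 windows overlap and hold the same TAATTA site, so the 6 are not separate finds. All these words are letter matches only.

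Ptprk, a receptor-type protein tyrosine phosphatase that also acts as a homophilic adhesion molecule, was found in most IN2 nuclei. The gene (ENSMUSG00000019889) lies on chromosome 10, positions 28074820 to 28597397, forward strand. It stood at 1338, 1245, 1243 and 768 CPM in IN2, against 273, 222, 116 and 93.4 CPM in the other inhibitory subtypes. The folds were 4.90 (4.54 to 5.28), 5.61 (5.19 to 6.07), 10.7 (9.99 to 11.6) and 8.23 (7.55 to 8.96). After thinning, 82.7%, 89.8%, 84.4% and 81.2% of IN2 nuclei held a UMI, against 41.7%, 32.8%, 20.7% and 21.5% of the others. IN2 had the highest level of any neuron subtype in each library.

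Further adhesion and synaptic recognition genes followed. Sdk2, an immunoglobulin-superfamily adhesion molecule that guides laminar connections in the retina, stood at 362, 301, 313 and 200.4 CPM, against 79.9, 87.8, 74.8 and 47.6 CPM. Cdh22, a classical cadherin, stood at 405, 375, 360.4 and 219.7 CPM, against 139, 99.9, 103 and 74.2 CPM. Both ranked first among all neuron subtypes in each library, although at E19 the Cdh22 level of IN9, 403 CPM, lay within the IN2 interval of 368 to 445. Ntng1, a membrane-anchored netrin that binds the postsynaptic protein Lrrc4c, stood at 2097, 2431, 2401 and 1390.5 CPM, against 514, 653, 774 and 519 CPM. Cntn3, a contactin, stood at 716, 1014, 828 and 717 CPM, against 218, 209, 177 and 223 CPM. IN2 was first for Cntn3 among inhibitory subtypes, while the excitatory subtype EN6 was higher (2636, 2572, 2432 and 1259.5 CPM). For Ntng1, IN2 was first of its class at E19 and P4, IN7 stood near it at P8 (2427 CPM), and IN7 and IN5 were higher at P21 (2062 and 1582 CPM). IN2 was thus not the sole source of these surface genes among neurons.

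Secreted ligands and other membrane proteins formed the rest of the higher set. Nxph1, a secreted ligand of alpha-neurexins, stood at 5796, 4554, 4525 and 2835 CPM, against 1450.1, 1141, 1100.2 and 729.7 CPM. It was found in 99.3%, 98.1%, 99.3% and 98.8% of thinned IN2 nuclei, yet IN9 was higher in each library (8858, 9599, 8438 and 4212 CPM). Tmem132d, a transmembrane protein, showed the same order, with IN2 at 1144, 1076, 1263 and 794 CPM, the others at 307, 238, 361 and 154 CPM and IN9 at 1935, 2442, 1931 and 1358 CPM. Its relative Tmem132c stood at 343, 356, 395 and 378 CPM, against 139, 118, 161 and 107 CPM. Angpt1, a ligand of the Tie2 receptor of blood vessels, stood at 176, 153, 91.0 and 39.2 CPM, against 22.8, 25.5, 14.0 and 12.8 CPM. At P21, 1 nucleus held 20.3% of the IN2 UMIs of Angpt1, and IN6 was higher there, at 87.2 CPM. Nxph1 and the Tmem132 genes thus described IN2 together with 1 or more other subtypes.

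The transcription factors called higher were Npas3, Foxp2 and Emx2. Npas3, a basic helix-loop-helix PAS factor of neural progenitors and neurons, stood at 1954, 1659, 1587 and 1143 CPM, against 618, 675, 442 and 417 CPM, and IN2 was first of the inhibitory subtypes in each library. Foxp2, a forkhead factor (ENSMUSG00000029563, chromosome 6, positions 14901349 to 15441977, forward strand), stood at 1175, 1057, 1064 and 852 CPM, against 399, 304, 452 and 369 CPM. IN6 held Foxp2 at a like level (1343, 1138, 1054 and 1145 CPM). Foxp2 was found in 65.3%, 74.1%, 78.7% and 81.2% of thinned IN2 nuclei and in 43.9%, 39.1%, 49.1% and 44.8% of the others. Emx2, a homeobox factor known best from the cerebral cortex, stood at 73.9, 58.8, 48.7 and 25.5 CPM, against 21.3, 9.50, 15.3 and 8.49 CPM. Its opposite-strand neighbour Emx2os, a long non-coding RNA whose gene overlaps that of Emx2 on chromosome 19, stood at 176, 120.2, 166 and 113 CPM, against 47.8, 25.5, 43.1 and 48.4 CPM.

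Lncenc1, a long non-coding RNA known from embryonic stem cells, completed the 12 leading higher genes at 96.0, 83.7, 83.0 and 71.0 CPM, against 17.8, 25.3, 12.9 and 7.34 CPM. The remaining genes called higher were Ptpre, Adamts16, Pde1c and Egflam. Of the 12 leading higher genes, IN2 was first of all neuron subtypes in every library for 4 (Rxfp2, Ptprk, Sdk2 and Cdh22). For 7 it was first of the inhibitory subtypes, those 4 and Cntn3, Lncenc1 and Npas3.

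**Figure D2:**
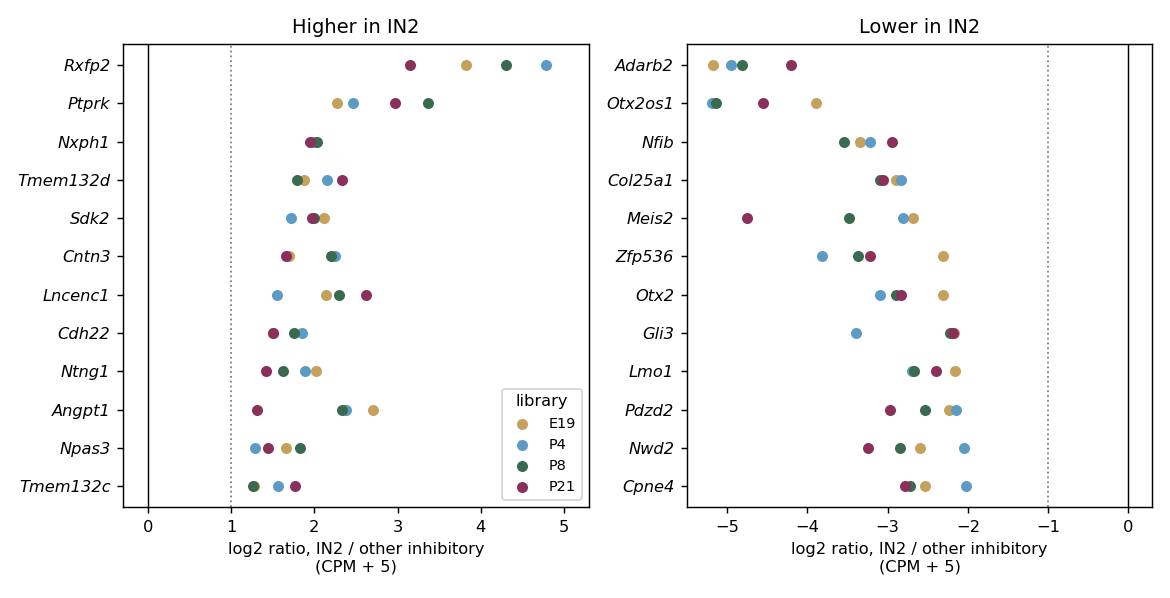
Log2 ratio of IN2 to the other inhibitory subtypes (5 CPM added to both) for the 12 leading genes on each side, 1 point per library. Dotted lines mark log2 ratios of 1 and -1; Rxfp2 lies between 3.15 and 4.79 and Adarb2 between -5.18 and -4.20.

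Adarb2, a member of the RNA-editing deaminase family and a common marker of cortical interneuron classes, ranked first of the lower genes. The rank rests on its highest log2 ratio over the libraries, -4.20. The gene (ENSMUSG00000052551) lies on chromosome 13, positions 8202866 to 8768747, forward strand. It stood at 77.5, 91.7, 92.5 and 109 CPM in IN2, against 2984, 2972, 2723 and 2087 CPM in the other inhibitory subtypes. The folds of the others over IN2 were 38.5 (31.1 to 48.3), 32.4 (26.7 to 39.7), 29.5 (25.5 to 34.2) and 19.1 (16.6 to 22.2). A UMI was found in 23.3%, 24.1%, 18.4% and 12.9% of thinned IN2 nuclei, against 68.1%, 73.1%, 74.5% and 72.7% of the others. IN2 shared the low level with IN6 and IN9, IN8 was next, and IN12 was highest, at 9865 to 11583 CPM. Low Adarb2 thus described IN2 together with further subtypes. Otx2os1 had lower log2 ratios than Adarb2 at P4, P8 and P21 (-5.18, -5.14 and -4.55, against -4.94, -4.81 and -4.20). At E19 it had a higher one (-3.89, against -5.18).

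Several of the leading lower genes encode transcription factors. Otx2, the homeodomain factor of the midbrain, stood at 28.6, 9.79, 24.4 and 11.4 CPM in IN2, against 161, 122, 214 and 111 CPM. Its opposite-strand RNA Otx2os1 stood at 114, 43.6, 73.6 and 44.3 CPM, against 1758, 1761, 2769 and 1153 CPM. The genes overlap on chromosome 14, and UMIs could be shared between them, as between Emx2 and Emx2os, if counting ignored the read strand. The sources used here do not say whether it did. IN6 was the other subtype low in both Otx2 and Otx2os1. Nfib, a nuclear factor I protein, stood at 42.5, 24.0, 13.4 and 22.1 CPM, against 476, 265, 209.6 and 203 CPM, with the highest level in IN4. Meis2, a homeodomain cofactor, stood at 70.2, 38.3, 34.3 and 9.65 CPM, against 476, 297, 435 and 389.9 CPM, with the highest level in IN3. Zfp536, a zinc finger protein, stood at 49.9, 8.90, 14.4 and 17.6 CPM, against 268, 191, 196 and 206 CPM. Each of these factors was high in particular other subtypes, so that a low level was not special to IN2.

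Gli3, an effector of Hedgehog signalling, had no UMI in IN2 at P4, which allows up to 2.67 CPM at 3 counts, and stood at 19.4, 8.95 and 2.27 CPM at E19, P8 and P21. The other inhibitory subtypes held 105, 47.7, 60.2 and 28.0 CPM. Lmo1, a LIM-only cofactor, stood at 34.2, 16.02, 25.4 and 7.38 CPM, against 169.5, 131, 188 and 60.3 CPM. Col25a1, a transmembrane collagen, stood at 78.5, 87.2, 122 and 56.8 CPM, against 616, 649.8, 1073 and 509 CPM. These 3 were highest in IN10, IN7 and IN3, respectively. The last 3 leading genes encode intracellular proteins, the PDZ protein Pdzd2, the NACHT and WD repeat protein Nwd2 and the copine Cpne4. Their log2 ratios lay between -3.25 and -2.02 over the libraries. Of the 12 leading lower genes, IN2 was last or next to last of the inhibitory subtypes in every library for 4.

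**Figure D3:**
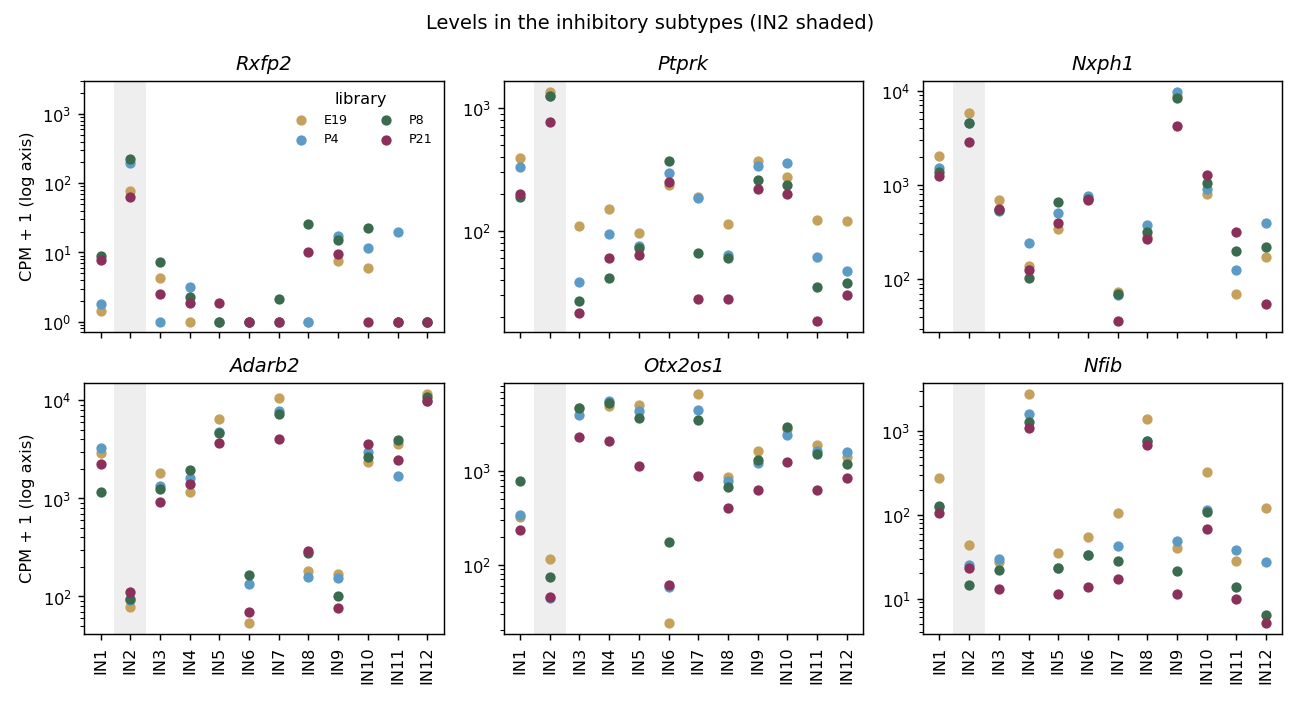
CPM plus 1 on a log axis for 3 higher and 3 lower leading genes in each inhibitory subtype, 1 point per library, IN2 shaded. Rxfp2 and Ptprk peak in IN2, Nxph1 is higher in IN9, and low Adarb2 is shared with IN6 and IN9.

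The leading genes occurred together in single nuclei. After thinning, the median IN2 nucleus held UMIs of 7, 8, 8 and 7 of the 12 higher genes at E19, P4, P8 and P21, against 3 in the other inhibitory nuclei in each library. At least 6 of the 12 were found in 74.7%, 88.9%, 80.9% and 75.3% of IN2 nuclei and in 10.5%, 11.7%, 10.4% and 7.10% of the others. Of the 12 lower genes the median IN2 nucleus held 1, 1, 2 and 1, against 5, 5, 6 and 5. The genes were picked from the same nuclei, so these counts describe how evenly the pattern is spread over IN2. Single genes did not split IN2 cleanly. At P8, 18 of 141 thinned IN2 nuclei held both Rxfp2 and Emx2os, 15 only Rxfp2, 37 only Emx2os and 71 neither.

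**Figure D4:**
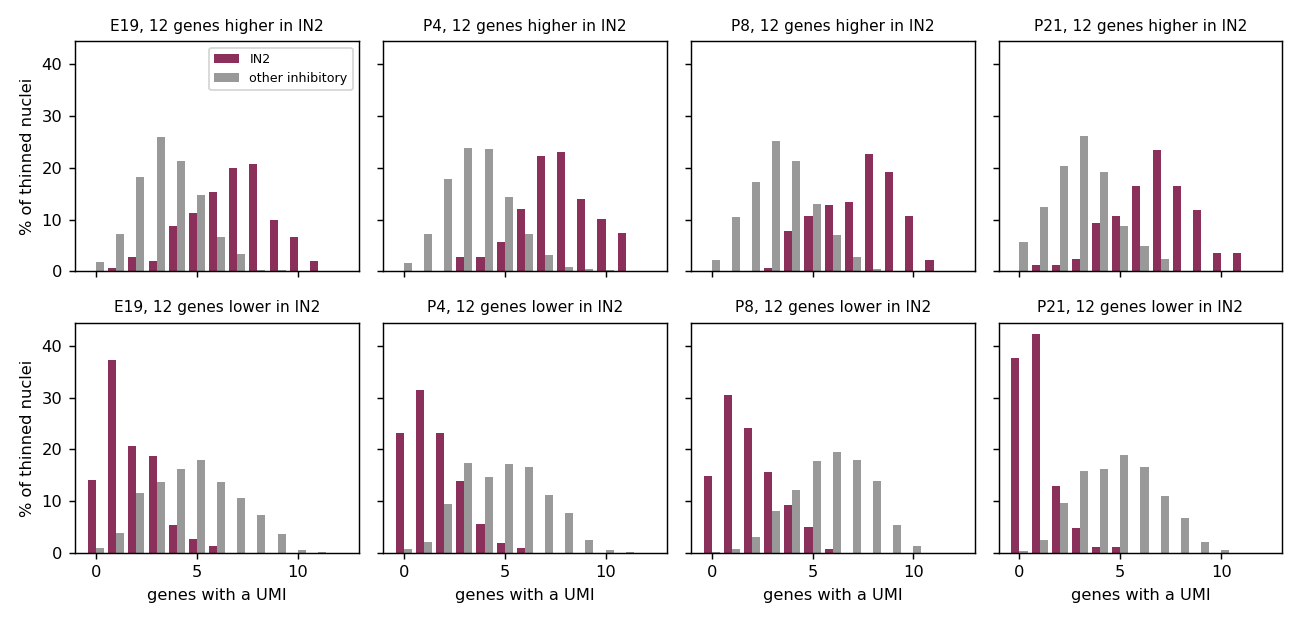
Percent of thinned nuclei (3800 UMIs) by the number of the 12 higher (top) and 12 lower (bottom) leading genes with a UMI, for IN2 and the other inhibitory subtypes in each library. The median is 7 or 8 in IN2 and 3 in the others for the higher genes.

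The profile most like that of IN2 was IN1 (593 nuclei), then IN8 (210 nuclei). Across 8567 genes, which are not independent replicates, the mean log2 profiles correlated with r = 0.974 for IN1 and 0.958 for IN8, and least with IN12 (0.909). Of 3971 genes, 23 were at least 1 log2 unit higher in IN2 than in IN1 in all libraries (0.579%) and 25 lower (0.63%). Lef1, the Wnt-pathway transcription factor, stood at 830.0, 848, 812 and 415 CPM in IN2, against 28.1, 57.7, 88.2 and 46.7 CPM in IN1. Frmd6, a FERM-domain protein, stood at 179, 125, 150.1 and 107 CPM, against 22.2, 21.6, 27.2 and 22.7 CPM. Foxp2 was at 218, 159, 231 and 181 CPM in IN1, Tmem132d at 184, 173, 213 and 125 CPM, and Rxfp2 at 0.43, 0.83, 7.78 and 6.67 CPM. These 5 genes separated IN2 from its nearest neighbour in every library.

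In the other direction IN1 held Adarb2 at 2893, 3265, 1167 and 2258 CPM. Cdh23, a cadherin known from hair cells, stood at 16.6, 7.12, 20.4 and 3.41 CPM in IN2 and at 98.5, 145, 563 and 139 CPM in IN1. Mecom, a zinc finger transcription factor, stood at 2.77, 0, 1.99 and 0 CPM in IN2 and at 23.0, 133, 94.7 and 212 CPM in IN1. Nfib and Nwd2 were the other 2 leading genes, at 273, 123, 127 and 105 CPM and at 156, 161, 183 and 74.1 CPM in IN1.

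IN8 differed from IN2 in more genes. Of 4033 genes, 39 were higher in IN2 (0.967%) and 47 lower (1.17%). Zfhx3, a homeobox and zinc finger factor, stood at 3054, 2347, 2351 and 1959.9 CPM in IN2, against 192, 81.9, 96.0 and 78.4 CPM in IN8. Nxph1 was at 279, 380.4, 314 and 268 CPM in IN8, Ntng1 at 179, 206, 242 and 133 CPM, and Ptprk at 114, 63.4, 59.2 and 27.1 CPM. Cntn3 was the fifth, at 63.0, 50.2, 60.5 and 104 CPM in IN8. Higher in IN8 were Cdh23 (189, 626, 645 and 91.9 CPM), Nfib (1384, 774, 762 and 677 CPM) and Zfp536 (609, 423, 372 and 424 CPM). Otx2os1 and Cpne4 were the other 2, at 866, 787, 674 and 399 CPM and at 371, 402, 401 and 277 CPM. Adarb2 was low in IN8 too, at 179, 159, 278 and 292 CPM, and so separated IN2 from IN1 but less from IN8.

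Of the gene lists, that of neuronal transcription factors held the most calls. Of 117 listed neuronal transcription factors beside the midbrain GABAergic ones, 39 passed the 50 CPM filter. Of these, 2 were higher in IN2 (Foxp2 and Npas3) and 9 lower (among them Meis1, Meis2, Ebf1, Ebf3, Nfib and Zeb2), with a median log2 ratio of -0.46 beside -0.01 over all genes tested. Of the 14 midbrain GABAergic factors 4 passed the filter, and 1, Otx2, was lower. Gata3 was close to the other subtypes, at 154, 95.3, 106 and 67.6 CPM against 149, 135, 124 and 82.5 CPM. It was found in 40.7%, 26.9%, 31.2% and 21.2% of thinned IN2 nuclei. Pax7, a paired-box factor of the dorsal midbrain, stood at 169.9, 89.0, 87.0 and 49.96 CPM, against 116, 100.3, 117 and 56.8 CPM.

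Over all genes 0.474% were higher and 1.12% lower, and a list with 0 or 1 call lies too near these shares to show anything particular to it. None of the 6 inhibitory transmitter genes, 17 receptors of GABA and glycine with chloride transporters, or 11 neuromodulator receptors that passed the filter was called in either direction. Of 22 glutamate receptors 1 was lower, the metabotropic receptor Grm3, at 251, 179.8, 148 and 71.0 CPM against 585, 529, 604 and 359 CPM. Of 43 ion channels 1 was lower, the calcium channel subunit Cacna2d1. Among 45 axon guidance genes 3 were higher (Ntng1, Cntn3 and Sdk2) and 2 lower. The lower ones were the semaphorin co-receptor Nrp2, at 52.6, 79.2, 76.6 and 55.1 CPM against 187, 245, 430.0 and 215 CPM, and the Slit receptor Robo2, at 787, 609.8, 718 and 573 CPM against 1869.5, 1503, 2104 and 1519.6 CPM. Of 64 synapse organisers 1 was higher, Cdh22.

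Common interneuron markers went both ways. Of 3 calcium-binding and interneuron markers that passed the filter, Nxph1 was higher and Reln lower, with a median log2 ratio of 0.73. Sst, the somatostatin precursor, was the 1 neuropeptide of 27 that passed the filter, and stood at 29.5, 12.5, 7.95 and 6.25 CPM in IN2 against 275, 70.1, 38.0 and 23.6 CPM. It was found in 10.7%, 7.41%, 2.13% and 2.35% of thinned IN2 nuclei. Reln, which encodes the secreted glycoprotein reelin, stood at 46.2, 52.5, 15.9 and 14.8 CPM, against 210.1, 208, 331 and 359.9 CPM. Pvalb, the calcium-binding protein parvalbumin, was found in no thinned IN2 nucleus at E19, P4 and P8 and in 3.53% at P21, against 0%, 0.340%, 0.107% and 2.93% of the other inhibitory nuclei.

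Within IN2 the widest stage differences lay between P8 and P21 and the smallest between P4 and P8. A gene was counted when its log2 ratio between 2 libraries was at least 1 in size and its higher level reached 50 CPM. From E19 to P4, 67 of 4229 genes were higher (1.58%) and 86 lower (2.03%). From P4 to P8, 5 of 4020 were higher (0.124%) and 26 lower (0.647%). From P8 to P21, 145 of 4111 were higher (3.53%) and 150 lower (3.65%). Over the whole span from E19 to P21, 425 of 4472 were higher (9.5%) and 511 lower (11.4%). The steps differ in length and in the depth of both libraries. At a filter of 100 CPM, IN2 had 35 genes higher and 39 lower from E19 to P4. The other inhibitory subtypes had 4 and 13. From P4 to P8 the counts were 4 and 13 in IN2, against 8 and 6 in the others. Those from P8 to P21 were 74 and 75, against 59 and 63. The IN2 sums held fewer UMIs than those of the other subtypes. The part of counting error in these counts was not tested.

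Several further quantities differed between the libraries in IN2, not all of them in the other inhibitory subtypes too. Xist was found in 2.67%, 41.7%, 29.1% and 55.3% of thinned IN2 nuclei, and a UMI of the Y-linked Ddx3y, Uty, Eif2s3y or Kdm5d in 70.0%, 43.5%, 48.2% and 30.6%. Both shares differed between libraries, in excitatory neurons too for Xist (0.235%, 38.4%, 36.6% and 57.2%), and their part in the stage differences was not tested. The 7 oligodendrocyte markers summed to 36.0, 38.3, 32.8 and 234 CPM in IN2, and to 39.6, 32.5, 35.3 and 328 CPM in the other inhibitory subtypes. Mobp and Opalin, which define mature oligodendrocytes, were at 0 in IN2 at E19, P4 and P8. The 8 astrocyte markers summed to 191, 174, 151 and 122 CPM in IN2, and to 218, 226, 260 and 171 CPM in the other inhibitory subtypes. The 7 microglial markers summed to 37.9, 44.5, 41.3 and 56.2 CPM in IN2, and to 36.3, 35.3, 36.1 and 34.9 CPM in the others. The median percent of mitochondrial UMIs in IN2 was 0.720, 0.654, 0.250 and 0.148.

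Genes of immature neurons were lower in IN2 at P21 than at E19. Of 26 that passed the filter, 23 were past the fold on the low side from E19 to P21 and none on the high side, with a median log2 ratio of -2.39 beside 0.02 over all genes tested. The same genes had a median of -2.34 in the other inhibitory subtypes. By step, 7 of 26 were past the fold on the low side from E19 to P4, 4 of 24 from P4 to P8 and 14 of 22 from P8 to P21. Over all genes 2.03%, 0.647% and 3.65% were lower in these steps, and 11.4% from E19 to P21. Tubb2b, a beta-tubulin of growing axons, stood at 884, 364, 162 and 2.84 CPM, 311-fold (133 to 961) lower at P21 than at E19. Nnat, a membrane protein of developing neurons, stood at 1193, 479, 298 and 17.6 CPM, 67.8-fold (47.5 to 100) lower. Cd24a, a surface glycoprotein of newborn neurons, stood at 107, 19.6, 5.97 and 0 CPM, at least 62.9-fold lower at P21, taking 3 counts as the limit in that library. Tubb5 (589, 282, 108 and 15.3 CPM) and Tmsb10 (448, 215, 103 and 14.2 CPM), which have near-identical relatives in the genome, followed the same order and are less certain.

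Fabp7, a fatty acid-binding protein of radial glia and astrocytes, was among the 6 genes with the lowest ratios and stood at 285, 128, 61.6 and 2.27 CPM in IN2. It was as abundant in the other inhibitory subtypes (276, 128, 74.98 and 3.14 CPM). Per nucleus it gave 1.87, 1.31, 0.873 and 0.046 UMIs in IN2 and 1.87, 1.13, 0.829 and 0.0455 in excitatory neurons. Such a like level across neuron classes was also seen for Ttr, the transthyretin of choroid plexus, which had no UMI in IN2 at E19 and P8, 2.84 CPM at P21 and 104 CPM at P4. At P4 Ttr gave 1.06 UMIs per IN2 nucleus, 0.897 per excitatory nucleus and 3.00 per astrocyte. These 2 genes lead steps within IN2 by rank, at levels per nucleus shared by other classes of the same library, and the part of free RNA was not tested.

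Of 25 mature neuron genes, 11 were past the fold on the high side (among them Thy1, Snap25, Syt2, Cplx1, Vsnl1, Kcna1 and Kcna2) and 1, the neurofilament gene Nefl, on the low side, with a median of 0.96 (0.81 in the other inhibitory subtypes). Of 45 ion channels 10 were higher and 4 lower, where 9.5% of all genes were higher and 11.4% lower. The 10 included the voltage-gated potassium channels Kcna1, Kcna2, Kcnc1 and Kcnc2 and the sodium channel Scn1a. The 4 were the sodium channels Scn3a and Scn9a, the potassium channel Kcnh8 and the calcium channel subunit Cacna2d1, so potassium and sodium channels lay on both sides. Of 4 matrix genes Bcan and Tnr were higher, with Bcan at 15.7, 16.02, 11.9 and 69.8 CPM, and Ncan was lower, at 114, 109, 56.2 and 32.9 CPM. These are parts of the perineuronal matrix.

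Receptor genes lay on both sides. The NMDA receptor subunit Grin1 stood at 149.6, 217, 276 and 437 CPM and the AMPA receptor subunit Gria3 at 107, 101, 121 and 376 CPM. They were the 2 of 22 glutamate receptors past the fold on the high side, and Grin3a, Grik1, Grik3 and Grm3 were past it on the low side. Over all genes 9.5% were higher and 11.4% lower, and counts this small show nothing particular to glutamate receptors. Among glycine receptors Glra2, the fetal-type subunit, stood at 81.2, 37.4, 39.3 and 22.7 CPM and Glra3 at 12.9, 16.9, 23.9 and 53.4 CPM. Of 10 neuromodulator receptors, 4 were higher at P21 and none lower, the muscarinic receptor Chrm2 and the serotonin receptors Htr1f, Htr2c and Htr7. The median log2 ratio of the 10 was 0.42 in IN2 and 0.76 in the other inhibitory subtypes, so the difference was not special to IN2. Htr2c stood at 227, 402, 274 and 631 CPM, so its levels did not follow the order of stages.

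The 6 largest log2 ratios in IN2 from E19 to P21, among genes that reached 100 CPM at either stage, were those of 3 protein-coding genes and 3 long non-coding RNAs. Rasgrf1, a calcium-dependent activator of Ras, stood at 14.8, 47.2, 117 and 498 CPM, 33.7-fold (20.6 to 59.2) higher at P21 than at E19. Sgpp2, a sphingosine 1-phosphate phosphatase, stood at 2.77, 14.2, 10.4 and 166 CPM, 59.9-fold (20.3 to 292) higher. Rhbdl3, a rhomboid-family membrane protein, stood at 3.69, 5.34, 8.95 and 125 CPM. The non-coding RNAs Lncpint (29.5, 61.4, 115 and 598 CPM), Gm28928 (48.9, 257, 398 and 746 CPM) and Gm13629 (8.31, 13.4, 28.8 and 249 CPM) completed the 6. Gm13629 overlaps the sodium channel gene Scn9a on the opposite strand. For Rasgrf1 the other inhibitory subtypes had the same order of stages (33.0, 75.6, 82.8 and 523 CPM).

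Single steps were led by further genes. From E19 to P4, Dync1i1, a dynein intermediate chain, went from 38.8 to 204 CPM (log2 ratio 2.25, against 0.85 in the other inhibitory subtypes), and Pnoc, the nociceptin precursor, from 124 to 22.3 CPM. Lmo3, a LIM-only cofactor, went from 107 to 30.3 CPM (-1.67, against -0.26). From P4 to P8, Thrb, the thyroid hormone receptor beta, went from 49.0 to 119.8 CPM, Stxbp6, a SNARE-binding protein, from 90.8 to 215 CPM, and Dgkg, a diacylglycerol kinase, from 51.6 to 115 CPM (1.08, against -0.26). Zfp804b, a zinc finger gene, was high at P4 alone, at 202, 484, 212 and 213 CPM over the 4 libraries. From P8 to P21, Piezo2, the mechanically gated channel, went from 133 to 12.5 CPM (-2.98, against -1.53) after 29.5 CPM at E19 and 89.0 CPM at P4. Piezo2, like Rxfp2, was highest in IN2 at P4 and P8.

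**Figure D5:**
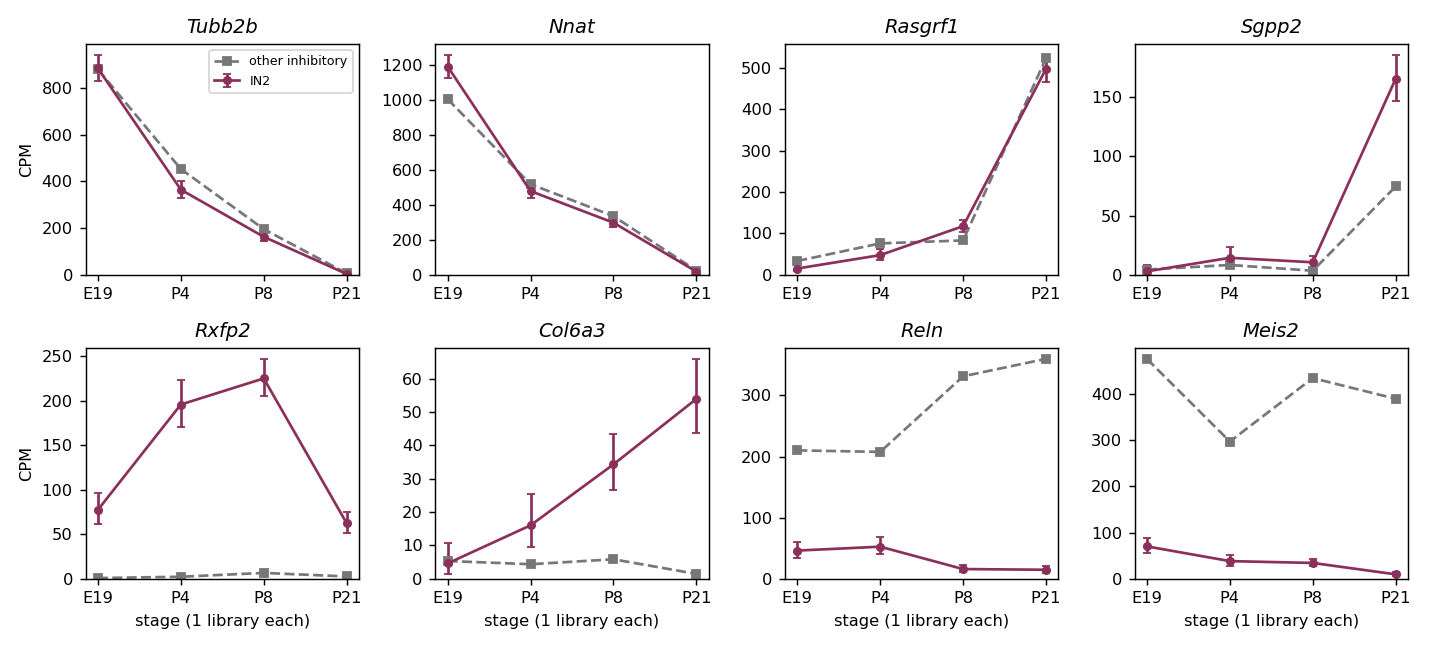
CPM by stage (1 library each, linear axes that start at 0) in IN2 with 95% intervals for counting error and in the other inhibitory subtypes without intervals. Tubb2b and Nnat are lower at each later stage in both, Rxfp2 peaks at P4 and P8 in IN2, and Col6a3 and Reln differ in direction between the populations as summed here (for Reln not with the other subtypes weighted alike).

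For most genes the stage difference in IN2 lay close to that in the other inhibitory subtypes. Of 4759 genes, 60 had an E19 to P21 log2 ratio at least 1 higher in IN2 (1.26%) and 59 at least 1 lower (1.24%). Col6a3, a collagen VI chain, stood at 4.62, 16.02, 34.3 and 53.9 CPM in IN2 and at 5.33, 4.37, 5.84 and 1.47 CPM in the others. Col16a1, another collagen chain, stood at 2.77, 22.3, 28.8 and 87.4 CPM, against 6.35, 10.3, 9.15 and 18.1 CPM. Kiz, a centrosomal protein gene, stood at 0.92, 6.23, 4.97 and 38.6 CPM, against 58.6, 48.6, 29.3 and 65.6 CPM. At E19 these 3 genes rested on 5, 3 and 1 IN2 UMIs. For the other 2 genes of this side, the transcription factors Pax5 and Six3, the difference came from the other subtypes, which went from 59.7 to 0.31 CPM and from 61.3 to 1.15 CPM while IN2 was at or below 3.69 CPM throughout.

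On the opposite side lay Gabrr2, Eepd1, Adamtsl1, Reln and Meis2. Gabrr2, a GABA receptor rho subunit, reached 72.9 CPM in the others at P21 after 1.23, 1.14 and 3.64 CPM, and stood at 1.85, 0, 0.50 and 0.57 CPM in IN2. Eepd1, an endonuclease-domain protein, stood at 7.39, 3.56, 5.97 and 7.95 CPM in IN2 and at 5.94, 12.5, 18.5 and 58.6 CPM in the others. Adamtsl1, a secreted matrix protein, stood at 95.1, 87.2, 83.5 and 24.4 CPM in IN2, against 127, 165, 272 and 246 CPM. Meis2 had a log2 ratio of -2.36 in IN2 and -0.28 in the others, and Reln of -1.37 and 0.76. Low Meis2 and low Reln, which marked IN2 in all 4 libraries, were thus further from the other subtypes at P21 than at E19. The makeup of those subtypes also differed between libraries, with IN1 at 29.8%, 27.8%, 4.78% and 9.46% of inhibitory nuclei. With the other subtypes weighted alike the differences between the ratios were smaller, at -1.19 for Meis2 in place of -2.07, -1.10 for Reln in place of -2.13, 1.52 for Pax5 in place of 3.15 and 1.55 for Six3 in place of 2.79. The ratio of the others for Reln then had the same sign as in IN2, at -0.28. For Adamtsl1 the difference was -1.94 in place of -2.70, and the ratio of the others 0.17 in place of 0.93.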

How the data were processed

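The authors deposited 1 matrix of counts of unique molecular identifiers (UMIs), raw and not normalised, with a table of nuclei giving stage, class, subtype, cluster number and reference labels. Per the labels, nuclei were purified through sucrose, captured with 10x Genomics 3′ v3 chemistry and aligned to an mm10 pre-mRNA reference, and the submitters' processing notes name Cell Ranger 3.0.2. The sources used here do not give filters on nuclei, treatment of doublets or the naming of subtypes. The deposited percent of mitochondrial UMIs was used as given by the authors. UMI totals in the deposited table matched the matrix in all 9724 nuclei. A further 4 columns of the table were not used.

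UMIs were summed per library and population and scaled to counts per 1000000 (CPM). Before log2 ratios were taken, 5 CPM were added to each level, so that differences of low genes are understated. A call needed a log2 ratio of 1 in size and 50 CPM in the higher population, and lists used the same filter. Intervals were exact at the 95% level, Poisson for CPM, conditional binomial for folds and Clopper-Pearson for shares, and cover counting error only. A count of 0 was given a limit of 3 counts per library. Thinning to 3800 UMIs took the 5th percentile of inhibitory nuclei, rounded down.

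The members and gene lists were chosen with earlier results of these data known. Named by rule were the 12 genes with the highest minimum and the 12 with the lowest maximum log2 ratio to the other inhibitory subtypes, and 5 each way against each of the 2 subtypes most alike. Further rules took the 4 largest and 4 lowest ratios per step and 6 each from E19 to P21 (at least 100 CPM), and 5 each way for the difference between populations. Within lists, the 3 highest, 3 lowest and the largest stage ratios were named at 20 CPM or more. Emx2, Emx2os, Pax7, Pvalb and the other called genes and list members named were chosen after their values were seen. Genes of mitochondria, ribosomal proteins and haemoglobin, and sex-linked ones, were not ranked. A further gene picked by these rules and some list members are not reported here.

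Gene positions are from GENCODE M21 on GRCm38. Of the 24 leading genes, 19 overlapped an opposite-strand gene and 15 a same-strand gene. Promoter windows are from RefSeq. Python 3.11.15, numpy 2.4.6, scipy 1.17.1, pandas 2.3.3 and matplotlib 3.10.9 were used. The rule for higher genes was also run on Poisson draws of a pooled profile with known folds put in. Those draws hold counting error only, without variation between nuclei, subtypes or animals, and so do not check the calls made here. Alternatives were another pseudocount, scaling, weighting of nuclei or subtypes, thinning, other filters, and leaving out nuclei with UMIs of Slc17a6 or Slc17a7 or each library in turn.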

Additional observations from a re-analysis of the deposited data

Results flagged for a closer look

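Col6a3, Adamtsl1 and Reln were flagged because their E19 to P21 difference in IN2 had the opposite sign to that in the other inhibitory subtypes. Further genes had opposite signs too, such as Gabrr2, with -0.30 in IN2 and 3.65 in the others. The difference between the populations was not tested. Col6a3 had a log2 ratio of 2.62 in IN2 and -0.68 in the others. Adamtsl1, a secreted matrix protein, had -1.77 in IN2 and 0.93 in the others, but only 0.17 in the others when their subtypes were weighted alike. Reln, which encodes reelin, had -1.37 in IN2 and 0.76 in the others, but -0.28 in the others when their subtypes were weighted alike, so that the signs no longer differed. Each value compares 2 libraries, and Col6a3 rested on 5 IN2 UMIs at E19. In the other subtypes Col6a3 was near or below the 5 CPM added to each level, so its sign there is weakly held. With 20 CPM added, its difference between the ratios was 1.83 in place of 3.29.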

How the results depend on the processing

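No paired analysis was possible because each stage had 1 library. The counts of genes higher and lower in IN2 than in the other inhibitory subtypes stayed within 1.5 times of 19 and 45 under the alternatives run, and no called value of IN2 changed direction. The opposite sign of Reln in the other subtypes was lost with those weighted alike (-0.28 in place of 0.76). That of Adamtsl1 was kept at a smaller size (0.17 in place of 0.93). Counts between stages moved more. With 20 CPM added they were 37 higher and 37 lower from E19 to P4, 3 and 9 for P4 to P8, and 89 and 99 for P8 to P21, and the counts of ratios that differed from the other subtypes were 33 and 28. In thinned nuclei 106 were higher from E19 to P4, 36 higher and 79 lower for P4 to P8, and 268 and 241 between P8 and P21. With a filter of 10 CPM the counts were 244 and 215 from E19 to P4, 39 and 90 for P4 to P8, 377 and 381 for P8 to P21, and 862 and 1256 from E19 to P21. With a filter of 100 CPM they were 35 and 39, 13 lower from P4 to P8, 74 and 75, and 246 and 260. From P4 to P8, median-of-ratios scaling gave 10 and 14, nuclei weighted alike 9 higher, and nuclei without Slc17a6 or Slc17a7 UMIs 11 higher. With the other subtypes weighted alike, 35 genes had a ratio at least 1 higher in IN2. The cause of these moves was not tested, except that a filter alters how many genes are counted.

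As a share of all neurons IN2 was 7.40%, 5.66%, 7.26% and 6.12%, and of all nuclei 6.38%, 4.61%, 5.67% and 3.87%. Over the 2000 most variable genes the correlation was 0.953 with IN1 and 0.927 with IN8. Of the 12 leading higher genes between 9 and 12, and of the 12 lower between 8 and 12, remained among the leading 12 under the alternatives, with the lowest counts when the other subtypes were weighted alike (9 higher) and without the E19 library (8 lower). Median-of-ratios scaling moved the median E19 to P21 log2 ratio of all genes from 0.02 to 0.12. An alternative chosen after seeing the data kept only IN2 nuclei of cluster number 5, and gave 19 genes higher and 50 lower than the other subtypes. With 87 to 165 nuclei per library, genes of few UMIs carry wide intervals.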
